A study of Mus musculus with 6 samples.

Results

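The coreceptor genes Cd4, Cd8a and Cd8b1 were followed in RNA of DN3a thymocytes, early T cell precursors of the thymus that are named double negative because they carry neither CD4 nor CD8 on their surface. The members were chosen by gene symbol. All 3 were found among the 41254 gene symbols of the deposited table, with 8 of its 100144 transcripts, and all 3 passed the filter on low counts that left 14653 genes to be tested. The table covers 6 libraries of total RNA depleted of ribosomal RNA, 3 from wild-type C57BL/6 mice and 3 from C57BL/6 mice of the genotype Tg_Cd2_GATA3, all adult. The genotype's name joins GATA3, a zinc finger transcription factor of T cells, to Cd2, a T cell gene whose regulatory sequences are often used to express transgenes in T cells; the construct, its copy number and the sort gates are not described in the labels. Whether each library is a separate animal is not stated either, so a p-value here measures only the spread between these libraries, which may be technical in part. Values per library are listed in the order of replicates 1, 2 and 3.

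CD4 and CD8 sit beside the T cell receptor and bind MHC molecules, CD4 those of class II and CD8 those of class I. CD4 is a single chain, while CD8 on thymocytes is mostly a pair of an alpha chain, encoded by Cd8a, and a beta chain, encoded by Cd8b1. The tails of CD4 and of the CD8 alpha chain hold a pair of cysteines that clasp the kinase Lck, which starts receptor signalling. Thymocytes lack both coreceptors until a rearranged receptor beta chain has been tested, and then pass through a stage that carries both. In double-negative cells a silencer within Cd4, bound by Runx proteins, keeps the gene off, and Patz1 is known as a repressor of the Cd8 genes.

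The coding ends of the members are shown because they separate the Lck-binding transcripts from the others, and because the table divides Cd8a fragments between 2 forms that differ there. Each run gives the last 33 codons with the stop, 99 bases, 5′ to 3′, from the GENCODE M21 transcripts on GRCm38. The authors' lengths differ from M21 for Cd8a-201 (3130 against 3128 bases), Cd8a-202 (3099 against 2975) and Cd8b1-201 (1418 against 1483). The transcript models behind their fragments are thus not exactly those printed. Capitals mark a cysteine codon (TGT or TGC), any codon and a second cysteine codon in frame.
Cd4-201: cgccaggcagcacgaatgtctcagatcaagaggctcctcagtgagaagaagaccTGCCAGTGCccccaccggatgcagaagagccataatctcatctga
Cd8a-201: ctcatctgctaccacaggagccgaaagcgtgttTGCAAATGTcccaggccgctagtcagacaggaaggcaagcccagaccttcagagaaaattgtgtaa
Cd8a-202: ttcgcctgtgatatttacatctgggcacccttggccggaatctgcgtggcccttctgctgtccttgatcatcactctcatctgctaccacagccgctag
Cd8b1-201: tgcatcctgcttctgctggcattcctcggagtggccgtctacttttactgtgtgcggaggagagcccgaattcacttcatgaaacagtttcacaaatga
The spaced pair of cysteine codons occurred 1 time in this window of Cd4-201 and of Cd8a-201 and 0 times in those of Cd8a-202 and Cd8b1-201.

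The 2 Cd8a forms differ by exon 4 of Cd8a-201, 31 bases at chr6:71375888-71375918 (GRCm38, plus strand), which Cd8a-202 skips. The junctions are printed with 15 bases on either side, exon 4 in capitals.
Cd8a-201: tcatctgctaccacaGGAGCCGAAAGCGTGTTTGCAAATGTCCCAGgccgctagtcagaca
Cd8a-202: tcatctgctaccacagccgctagtcagaca
Skipping those bases moves the reading frame to an early stop, so that Cd8a-202 has 222 codons against 247 in Cd8a-201. This short form corresponds to what is known as the alpha prime chain of CD8, which lacks most of the tail.

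Cd8b1 (ENSMUSG00000053044) and Cd8a (ENSMUSG00000053977) are neighbours on chromosome 6, at 71322788 to 71337494 and 71373427 to 71379173, both on the plus strand and 35932 bases apart. Cd4 (ENSMUSG00000023274) lies far from them on the same chromosome, at 124864692 to 124888221 on the minus strand (GENCODE M21, GRCm38, the mm10 coordinates).

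Of the 3 members the RefSeq promoter table (GRCm38.p6) held Cd8a. Its 250 bases before the start, chr6:71373177-71373426, plus strand, are shown since Cd8a varied more between libraries than the other members, with matches to the motifs searched in capitals.
Cd8a promoter: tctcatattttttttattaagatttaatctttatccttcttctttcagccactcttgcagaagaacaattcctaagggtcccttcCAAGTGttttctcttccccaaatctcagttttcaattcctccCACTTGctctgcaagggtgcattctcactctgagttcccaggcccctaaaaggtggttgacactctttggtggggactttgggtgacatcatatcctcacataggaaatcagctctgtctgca
The motifs were searched on both strands. CANNTG, the E-box that E proteins bind, matched 2 times, starting 165 and 123 bases before the start, and 66.2% of the 32851 promoter windows of the same length that were searched held it. TGTGGT, a Runx core, and the GATA motifs AGATAA and TGATAA matched 0 times in this window, and 14.0%, 9.99% and 7.94% of the windows held them. These letters are a description of the window, not of binding.

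The libraries held 39022281 to 46985605 fragments, the wild-type ones 45469459 or more and the transgenic ones 42016334 or fewer. Fragments of Y-linked genes numbered 18522 in wild-type replicate 1 and 16840 in transgenic replicate 3 against 16 to 26 in the other libraries, so each group mixes libraries with and without Y-linked RNA. Within each group the library with Y-linked RNA therefore came from a different animal or pool than the others. Gata3, the gene named in the transgene, stood at 49.1, 38.2 and 43.5 CPM (fragments relative to library size, after TMM scaling) in the wild-type libraries and at 58.6, 53.6 and 61.6 CPM in the transgenic libraries. Its groups did not overlap, and edgeR did not call it (quasi-likelihood test with Benjamini-Hochberg adjustment over the 14653 genes, adjusted p = 0.170).

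All 3 coreceptor RNAs were present at low levels in wild-type DN3a cells. On the FPKM scale, which allows for length, Cd8b1 was highest at 6.37 ± 1.43 FPKM (SD, n = 3), and Cd8a and Cd4 followed at 2.50 ± 0.701 and 2.47 ± 0.717 FPKM (SD, n = 3 each), each as the sum over a gene's transcripts. Shorter non-coding forms add to the Cd4 sum, and its coding transcript alone stood at 1.47 ± 0.230 FPKM (SD, n = 3). Cd8b1 had the highest FPKM of the 3 in 6 of 6 libraries, while Cd8a and Cd4 lay within each other's spread in wild type. In transgenic cells the means were 2.88 ± 0.947 FPKM for Cd8b1, 1.53 ± 1.07 FPKM for Cd4 and 0.992 ± 0.629 FPKM for Cd8a (SD, n = 3 each), and the last 2 again lay within each other's spread. In wild type, 43.4% of the tested genes had a lower FPKM than Cd8b1, 31.1% than Cd8a and 31.0% than Cd4.

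For scale, genes that define the DN3 stage were far higher in the same wild-type libraries. Il2ra, the CD25 chain used to recognise this stage, stood at 92.4 ± 5.40 FPKM, Ptcra, the pre-T alpha chain that pairs with a new beta chain, at 116 ± 2.95 FPKM, and the recombinase gene Rag1 at 311 ± 5.66 FPKM (SD, n = 3 each). Dntt, which adds nucleotides at receptor joins, reached 1331 ± 202 FPKM (SD, n = 3). All 3 coreceptor RNAs together gave between 7.71 and 26.6 CPM in a library, before TMM scaling.

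By CPM, each coreceptor was lower in all 3 transgenic libraries than in any wild-type library, and none passed the test over all genes. By summed FPKM this held for Cd8a and Cd8b1, while the Cd4 groups overlapped, at 2.60, 1.70 and 3.12 FPKM in the wild-type libraries against 2.76, 0.951 and 0.872 FPKM in the transgenic ones. In CPM, the groups separated in this direction for 10.1% of the 14653 genes tested and in the other for 8.73%, and edgeR called 0% of them lower (2 genes, 0.0136%, were called in all, both higher). The log2 fold changes of the members had a median of -1.15, against 0.001 over all genes tested, and 2.04% of the genes had a value as low as that of Cd4 or lower. At an unadjusted p under 0.05 edgeR placed 7.7% of all genes lower, and all 3 members were among them. In bulk RNA, fewer cells that carry a transcript and less of it per cell cannot be told apart.

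Cd4 RNA, in CPM, was 6.90, 6.76 and 7.0 in the wild-type libraries and 4.86, 3.30 and 2.97 in the transgenic libraries. The wild-type libraries were nearly equal, with transgenic replicate 1 the nearest to them of the transgenic ones, and the groups did not overlap. The means were 6.89 ± 0.123 and 3.71 ± 1.01 CPM (SD, n = 3 each), 1.85-fold lower in transgenic cells. On the log2 scale the fitted change was -0.89 ± 0.22 (SE; edgeR quasi-likelihood test, adjusted p = 0.162).

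Cd8a RNA was 6.90, 6.82 and 10.8 CPM in the wild-type libraries and 5.53, 2.78 and 1.37 CPM in the transgenic libraries. Wild-type replicate 3 stood above the other wild-type libraries and transgenic replicate 3 was lowest of all, with 54 fragments (95% exact Poisson interval 40.6 to 70.5, which covers counting error alone), and the groups did not overlap. The means were 8.19 ± 2.29 and 3.23 ± 2.12 CPM (SD, n = 3 each), 2.53-fold lower in transgenic cells. On the log2 scale the fitted change was -1.34 ± 0.42 (SE; edgeR quasi-likelihood test, adjusted p = 0.221).

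Cd8b1 RNA was 7.21, 10.7 and 8.95 CPM in the wild-type libraries and 5.73, 3.07 and 3.30 CPM in the transgenic libraries. Wild-type replicate 1 was the lowest wild-type library and transgenic replicate 1 the highest transgenic one, without overlap. The means were 8.97 ± 1.76 and 4.03 ± 1.47 CPM (SD, n = 3 each), 2.22-fold lower in transgenic cells. On the log2 scale the fitted change was -1.15 ± 0.26 (SE; edgeR quasi-likelihood test, adjusted p = 0.159).

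**Figure D1:**
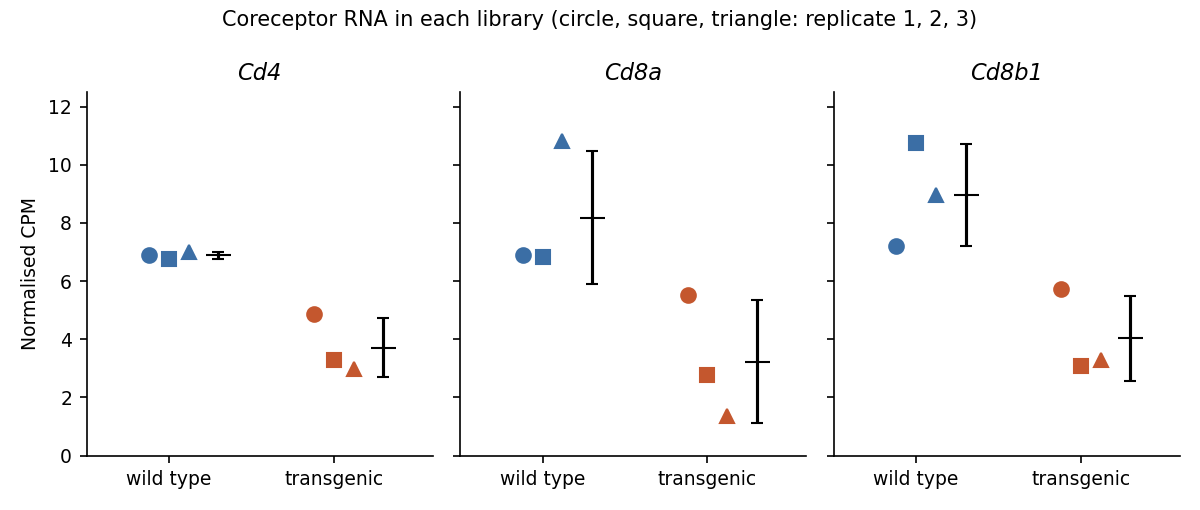
Normalised CPM (y axis) of Cd4, Cd8a and Cd8b1 in each wild-type (blue) and transgenic (orange) library, with circle, square and triangle for replicates 1, 2 and 3 and the mean with its SD of 3 libraries in black. In each panel the 3 transgenic libraries, 1.37 to 5.73 CPM over all panels, lie below the wild-type ones, 6.76 to 10.8 CPM, with transgenic replicate 1 the highest of its group.

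Whether the members were called differed between tests and settings. DESeq2 on the genes edgeR tested, with its low-count filter switched off, a fit added after the data were seen, called all 3 lower, with adjusted p = 0.0167 for Cd4, 0.0243 for Cd8a and 0.00320 for Cd8b1, among 2.01% of genes called lower. With that filter DESeq2 called 5.23% of the genes it adjusted and gave these 3 no adjusted p. Without wild-type replicate 1, edgeR called Cd8b1 lower (log2 fold change -1.29, adjusted p = 0.0397), along with 2.32% of the genes tested. Without a filter on low counts it did so too (log2 fold change -1.15, adjusted p = 0.0428), along with 0.485% of genes.

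Without the 2 libraries with Y-linked RNA, the log2 fold changes were -0.75 for Cd4, -1.08 for Cd8a and -1.16 for Cd8b1 (edgeR, adjusted p = 0.213, 0.194 and 0.107). The direction was the same for each member in 20 of 20 alternatives. These refit the same libraries, whose groups were already apart in CPM, so a change of sign had little room.

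**Figure D2:**
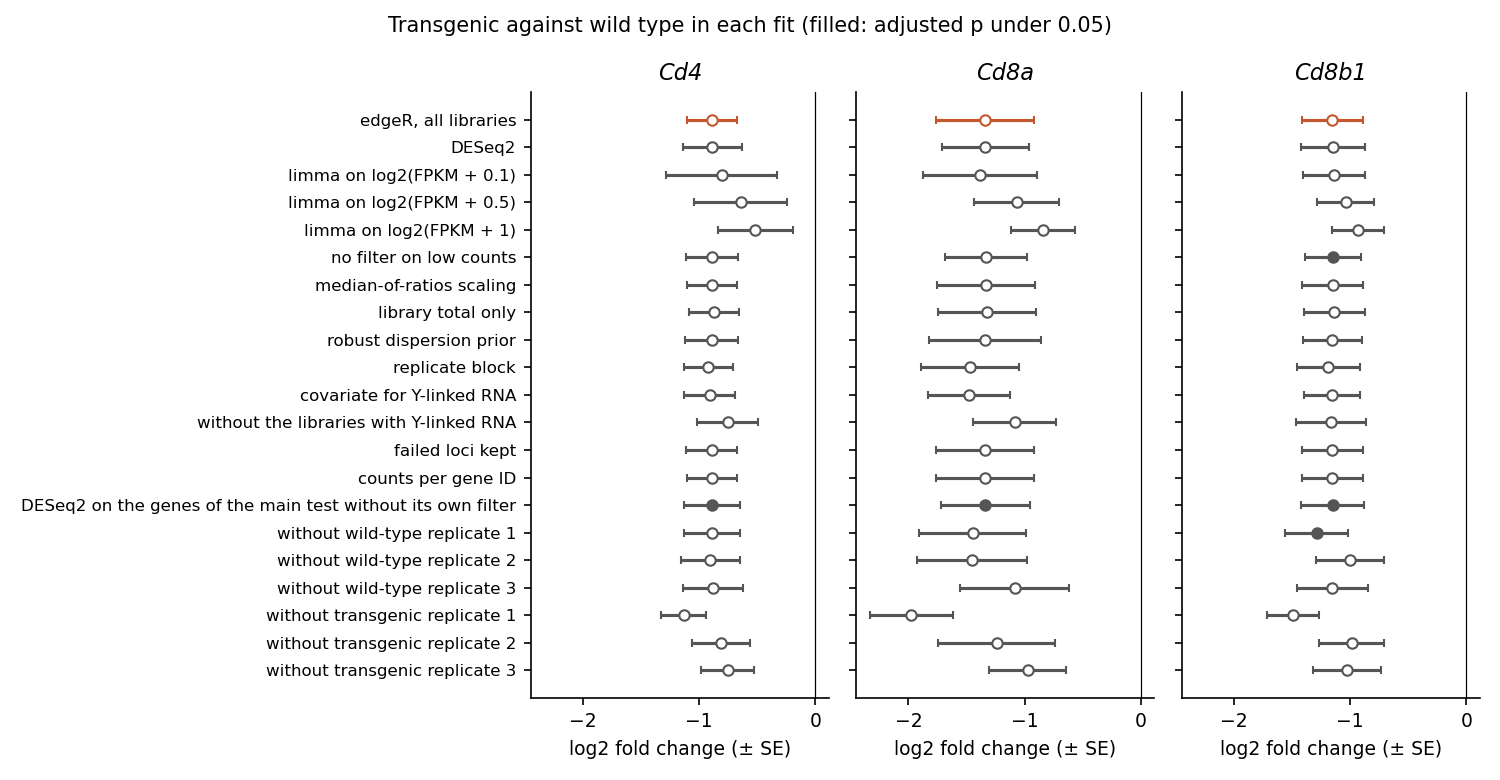
Log2 fold change of transgenic against wild type (x axis, bars one standard error) for each member in each fit (y axis), the main edgeR fit in orange at the top and filled points where the adjusted p is under 0.05. All points lie left of 0, and the filled ones are DESeq2 without its own filter for all 3 genes and, for Cd8b1, edgeR without wild-type replicate 1 and without the filter on low counts.

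Per transcript, the full-length coding forms were lower in each transgenic library. Of the 8 transcripts 5 passed the filter on low counts, and edgeR called none of them, as it called 0% of the 38358 transcripts tested. Of these 5, the 3 full-length coding forms had a raw p under 0.05 (edgeR quasi-likelihood test, 0.0117 for Cd4-201, 0.00521 for Cd8a-201 and 0.0122 for Cd8b1-201), and the same 3 separated the groups, as 6.62% of transcripts did in this direction. The division of fragments among the forms of a gene is an estimate by the authors' software.

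Cd4-201 (ENSMUST00000024044), the coding form, held 284, 314 and 220 estimated fragments in the wild-type libraries and 150, 115 and 112 in the transgenic libraries. It stood at 1.47 ± 0.230 FPKM in wild type and 0.780 ± 0.0776 FPKM in transgenic cells (SD, n = 3 each), and the log2 fold change of its fragments was -0.93 ± 0.26 (SE). It made up 69.5 to 100% of the gene's fragments over the 6 libraries.

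The other 4 Cd4 transcripts were scattered. The non-coding Cd4-203 held 30.3, 0 and 21.7 estimated fragments in the wild-type libraries and 44.5, 0 and 0 in the transgenic libraries. Cd4-205, which keeps an intron, held 56.0 fragments in wild-type replicate 3 and at most 10.6 in any other library, and Cd4-202, annotated as a retained intron too, held 18.3 fragments or fewer in each. Cd4-204 held at most 0.5 of a fragment. None of these 4 separated the groups.

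Cd8a-201 (ENSMUST00000066747), the form with the Lck-binding tail, held 297, 233 and 378 estimated fragments in the wild-type libraries and 74.2, 109 and 42.8 in the transgenic libraries. Its log2 fold change was -1.82 ± 0.43 (SE), and the groups did not overlap. The exon-skipped Cd8a-202 (ENSMUST00000172321) held 17.7, 83.7 and 111 fragments in wild-type and 156.8, 0.0 and 11.2 in the transgenic libraries, a log2 fold change of -0.22 ± 1.69 (SE) with groups that overlapped. Transgenic replicate 1, the transgenic library with the most Cd8a, had 67.9% of its Cd8a fragments placed on the exon-skipped form, against 0.0127% and 20.8% in transgenic replicates 2 and 3 and 5.61 to 26.4% in wild type.

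Cd8b1 had a single transcript in the table, Cd8b1-201 (ENSMUST00000065248), so its fragments needed no division. In the authors' deposited table it was the 1 member transcript marked significant, with group values of 6.37 and 2.88 FPKM, a log2 fold change of -1.15 and q = 0.0218, where 0.25% of the transcripts with a completed test were marked significant, 0.178% as lower. In the authors' deposited table Cd8a-201 had a log2 fold change of -1.79 with q = 0.607 and Cd4-201 of -0.92 with q = 0.436.

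**Figure D3:**
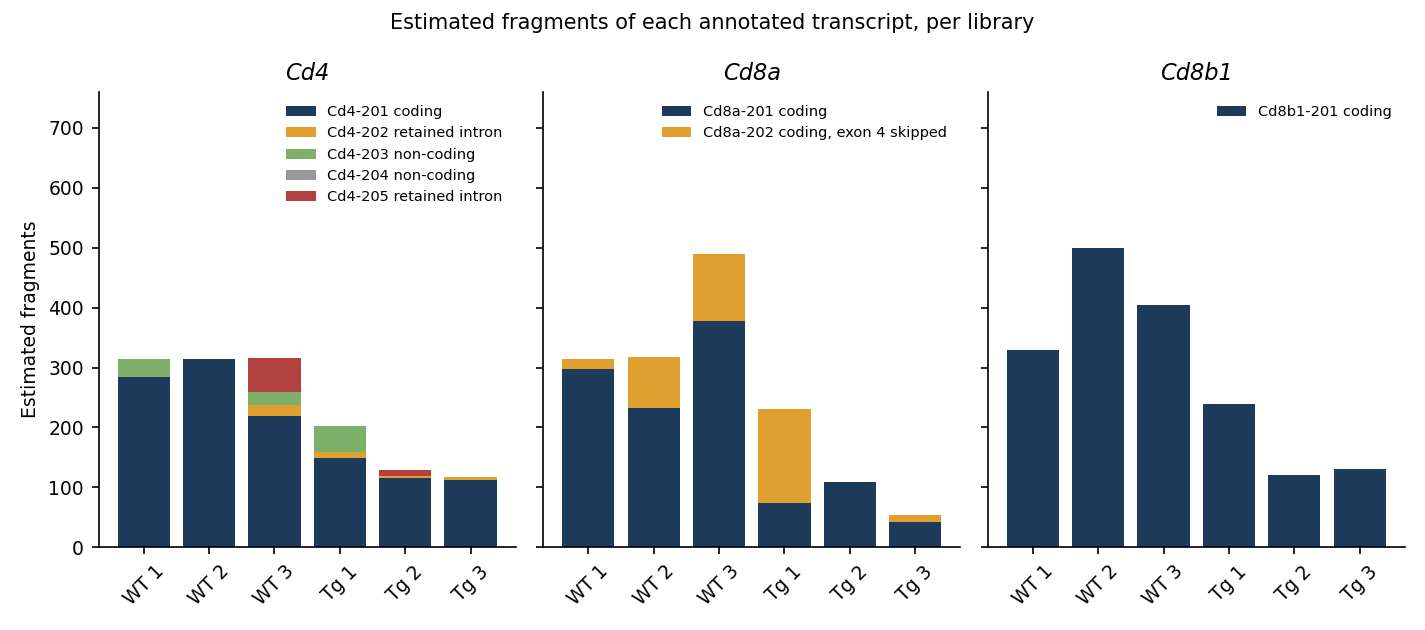
Estimated fragments (y axis, not scaled to library size) of each annotated transcript of Cd4, Cd8a and Cd8b1, stacked for each wild-type (WT) and transgenic (Tg) library. The coding forms in dark blue are lower in all 3 transgenic libraries, and the exon-skipped Cd8a form in yellow takes 156.8 of the Cd8a fragments in transgenic replicate 1.

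The balance between the coreceptors was compared per library, over 3 log2 ratios of CPM. The log2 ratio of Cd8a to Cd8b1 was -0.06, -0.65 and 0.28 in the wild-type libraries and -0.05, -0.14 and -1.27 in the transgenic libraries, with overlap. That of Cd4 to Cd8a was 0.00, -0.01 and -0.63 in wild-type and -0.19, 0.24 and 1.12 in transgenic libraries, and that of Cd4 to Cd8b1, added after the data were seen, -0.06, -0.67 and -0.35 against -0.24, 0.10 and -0.15. The differences of the means were -0.34, 0.61 and 0.27 (exact two-sided permutation test, p = 0.60, 0.30 and 0.30, Benjamini-Hochberg adjusted 0.60, 0.45 and 0.45). The smallest p this permutation test can give with 3 against 3 libraries is 0.10, so it could not pass 0.05, and the values are given as a description. Without transgenic replicate 3 the Cd8a to Cd8b1 difference turned to 0.053.

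Genes near the coreceptors were read for comparison, within 100000 bases of Cd4 or of the Cd8 pair. Of 29 annotated neighbours 15 were tested, and 12 lay below 0, the median being -0.19 on the log2 scale, against 0.001 over all genes tested. edgeR called 0 of them. At an unadjusted p under 0.05 it placed 4 lower (Cdca3, Cops7a, Usp5 and Krcc1) and 0 higher, beside 7.7% and 5.71% of all genes. DESeq2, which called 5.23% of the genes it adjusted, called Cdca3 lower. Next to the Cd8 pair, Smyd1, a muscle methyltransferase gene that starts 555 bases from Cd8b1 on the other strand, had 39, 26 and 26 fragments in the wild-type libraries and 18, 3 and 9 in transgenic ones. Its log2 fold change was -1.42 ± 0.72 (SE), and whether the counting used strand is not stated. Rmnd5a, on the far side of Cd8a, was abundant and had a log2 fold change of -0.02 ± 0.06 (SE), with Krcc1 at -0.21 ± 0.08 and the non-coding Gm1070 at -0.50 ± 0.91 (SE).

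Around Cd4, the adjoining Gpr162 lay at -0.46 ± 0.32 (log2 fold change ± SE) and Lag3, a CD4-related inhibitory receptor that also binds MHC class II, at -0.23 ± 0.51 (SE). Cdca3, a gene of cell division, had -0.48 ± 0.13, Cops7a -0.25 ± 0.08, Tpi1, an enzyme of glycolysis, -0.19 ± 0.11, Ptms -0.17 ± 0.12, Usp5 -0.15 ± 0.05 and Mlf2 -0.10 ± 0.06 (SE). The values above 0 were Spsb2 at 0.16 ± 0.22, Lrrc23 at 0.32 ± 0.31 and Eno2 at 0.08 ± 1.01 (SE). Those of Lag3, Spsb2 and Eno2 changed sign without transgenic replicate 3, and that of Lrrc23 did so on the FPKM scale.

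**Figure D4:**
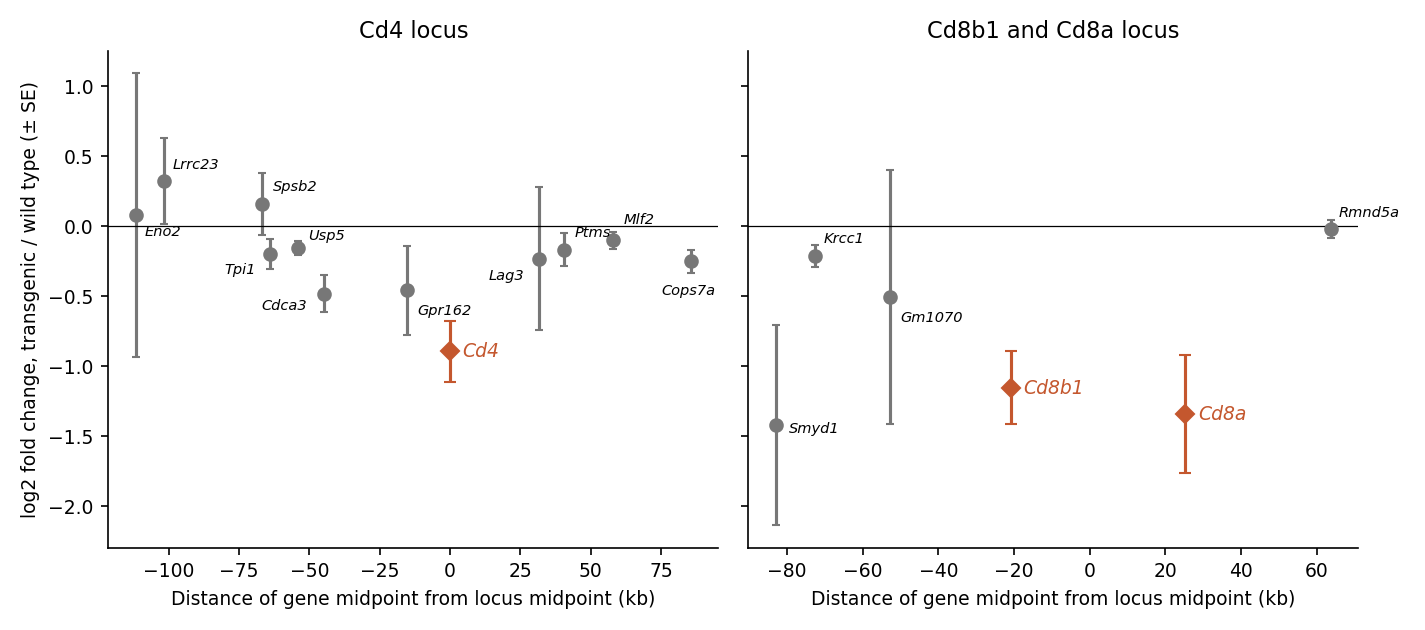
Log2 fold change of transgenic against wild type (y axis, bars one standard error) of the tested genes within 100000 bases, by distance of the gene's midpoint from the midpoint of Cd4 or of the Cd8 pair (x axis, kb); members are orange diamonds and neighbours grey circles. The members lie at -0.89, -1.15 and -1.34, and the 15 neighbours between -1.42 (Smyd1) and 0.32 (Lrrc23).

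Genes of the later thymocyte stages did not share one direction. Of 24 genes of beta selection and the double-positive stage, all tested, 13 lay above 0 and 11 below, and the median was 0.06 on the log2 scale. edgeR called 0. At an unadjusted p under 0.05, edgeR placed 4 higher and 4 lower, beside 5.71% and 7.7% of all genes. DESeq2, which called 5.23% of the genes it adjusted, called Cd1d1 higher and Cd28 lower.

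Among them the costimulatory receptor gene Cd28 lay at -0.34 ± 0.07 (log2 fold change ± SE), Slamf1 at -0.59 ± 0.18 and Cd6, which encodes a surface receptor of T cells, at -0.35 ± 0.11, each with groups that did not overlap. Of all genes tested, 10.1% separated the groups in this direction. On the other side Ccr9, a chemokine receptor of thymocytes, stood at 127 ± 19.4 CPM in wild type and 176 ± 41.4 CPM in transgenic cells (SD, n = 3 each), and Cd1d1, the MHC-like molecule that selects NKT cells, had a log2 fold change of 0.34 ± 0.08 (SE).

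Trac is the alpha chain constant gene whose spliced RNA accumulates once the alpha locus rearranges. It held 5 to 30 fragments in a library, at 0.657, 0.366 and 0.266 CPM in wild-type and 0.431, 0.128 and 0.559 CPM in the transgenic libraries. On the FPKM scale, which allows for length, Trac stood at 1.36 ± 0.616 in wild type and 1.22 ± 0.731 in transgenic cells (SD, n = 3 each). Of 20 genes of single-positive and mature T cells 10 were tested, with 5 above and 5 below 0. At an unadjusted p under 0.05 edgeR placed 0 of them, and it called 0. DESeq2 called 0 too, but its own filter gave the 3 coreceptors no adjusted p. Ccr7, Klf2, Foxp3 and Tbx21 of this list lay below the coreceptors, at 1.45, 1.02, 0.856 and 0.673 CPM in wild type. Under that filter DESeq2 could not call them. Klf2, a factor of thymic exit, had a log2 fold change of 0.61 ± 0.53 (SE). Cd40lg, Gzmb and Eomes of that list had 0 fragments in every library, where 3 fragments in the shallowest library would be 0.0769 CPM. Zbtb7b, the factor of the CD4 lineage, reached at most 0.432 CPM.

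The 19 genes of the DN3 stage lay 12 above and 7 below 0, and their median was 0.05 (log2). edgeR called 0, with 4 higher and 1 lower at an unadjusted p under 0.05, where all genes gave 5.71% higher and 7.7% lower. DESeq2, which called 5.23% of the genes it adjusted, called Notch1, Notch3 and Bcl11b higher. Notch3, whose receptor is active at this stage, lay at 0.31 ± 0.07 and Il2ra at -0.17 ± 0.06 (log2 fold change ± SE), both with groups that did not overlap. Of all genes tested, 8.73% separated the groups upward and 10.1% downward. Ptcra, Rag1 and Dntt had 0.10 ± 0.07, -0.08 ± 0.06 and 0.14 ± 0.11 (SE). Of 11 early progenitor genes 9 were tested, 6 above and 3 below 0, and edgeR called 0, with 1 higher and 2 lower at an unadjusted p under 0.05. DESeq2 called 0. The lower 2 were Lyl1 at -0.86 ± 0.30 and Cd34, a stem and progenitor cell antigen, at -0.84 ± 0.29 (SE), each with groups that did not overlap. The 1 higher was Bcl11a, a factor of early lymphoid progenitors, at 0.53 ± 0.20 (SE), with groups that overlapped.

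Genes of factors known to act on Cd4 or Cd8 transcription lay mostly above 0. Of 29 listed 28 were tested, 19 above and 9 below 0, at a median of 0.05 (log2). edgeR called 0, with 8 higher and 2 lower at an unadjusted p under 0.05, where all genes gave 5.71% higher and 7.7% lower. DESeq2, which called 5.23% of the genes it adjusted, called 4 higher, Gata3, Patz1, Bcl11b and Myb. Patz1, the repressor of the Cd8 genes, stood at 345, 322 and 314 CPM in the wild-type libraries and 384, 379 and 411 CPM in the transgenic libraries, without overlap, a log2 fold change of 0.26 ± 0.06 (SE).

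The Runx genes encode the proteins that bind the Cd4 silencer. Runx1, the main family member at this stage, lay at 0.13 ± 0.08 and Runx3, which acts in the CD8 lineage, at 0.08 ± 0.17 (log2 fold change ± SE), with overlap in both. On the FPKM scale Runx3 lay just below 0. Runx2 lay at 0.35 ± 0.15, higher in all 3 transgenic libraries by CPM and among the 8 higher genes. Bcl11b, a factor of T lineage commitment, had 0.26 ± 0.08 (SE). The 7 enzymes that write or remove DNA methylation held 5 values above and 2 below 0. edgeR called 0 of them, with 1 lower at an unadjusted p under 0.05, where 7.7% of all genes were lower. DESeq2, which called 5.23% of the genes it adjusted, called that gene lower. It was Dnmt1, which copies methylation at replication (log2 fold change -0.25 ± 0.07, SE).

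Partners of the coreceptors lay on both sides of 0. Of 13 partner genes, all tested, 9 lay above and 4 below 0, and edgeR called 0. At an unadjusted p under 0.05 it placed 1 higher and 1 lower, beside 5.71% and 7.7% of all genes. Lck, the kinase held by the tails printed above, stood at 647 ± 39.9 FPKM in wild type (SD, n = 3) and had a log2 fold change of 0.06 ± 0.07 (SE). Zap70, the kinase that Lck activates, had -0.46 ± 0.15 (SE) and was called lower by DESeq2, which called 5.23% of the genes it adjusted. Cd74, the chaperone of MHC class II, was at 1.32 ± 0.458 CPM in wild type and 2.65 ± 0.543 CPM in transgenic cells (SD, n = 3 each).

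Genes of S phase and mitosis lay below 0 with the coreceptors. All 20 were tested and lay below 0, at a median of -0.45 (log2). Each had an unadjusted p under 0.05 in edgeR, which placed 7.7% of all genes lower at that threshold and called 0 of the 20. DESeq2 called 19 of them lower, among 330 called lower of the 9511 genes it adjusted. Rrm2, which supplies nucleotides for replication, had -0.53 ± 0.09, Ccnb2, a mitotic cyclin, -0.50 ± 0.09 and Cdc45, part of the replicative helicase, -0.49 ± 0.08 (SE). As the mean deviation of log2(CPM + 0.5) over the list, the wild-type libraries lay at 0.004, 0.30 and 0.32 and the transgenic libraries at -0.18, -0.11 and -0.33. On the same scale Cd8b1 lay at 0.27, 0.81 and 0.56 in wild-type and at -0.04, -0.85 and -0.75 in the transgenic libraries. Cd4 lay at 0.42, 0.39 and 0.44 and at -0.04, -0.54 and -0.67, and Cd8a at 0.48, 0.46 and 1.09 and at 0.18, -0.70 and -1.51. The part of cell division in the coreceptor result was not tested.

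**Figure D5:**
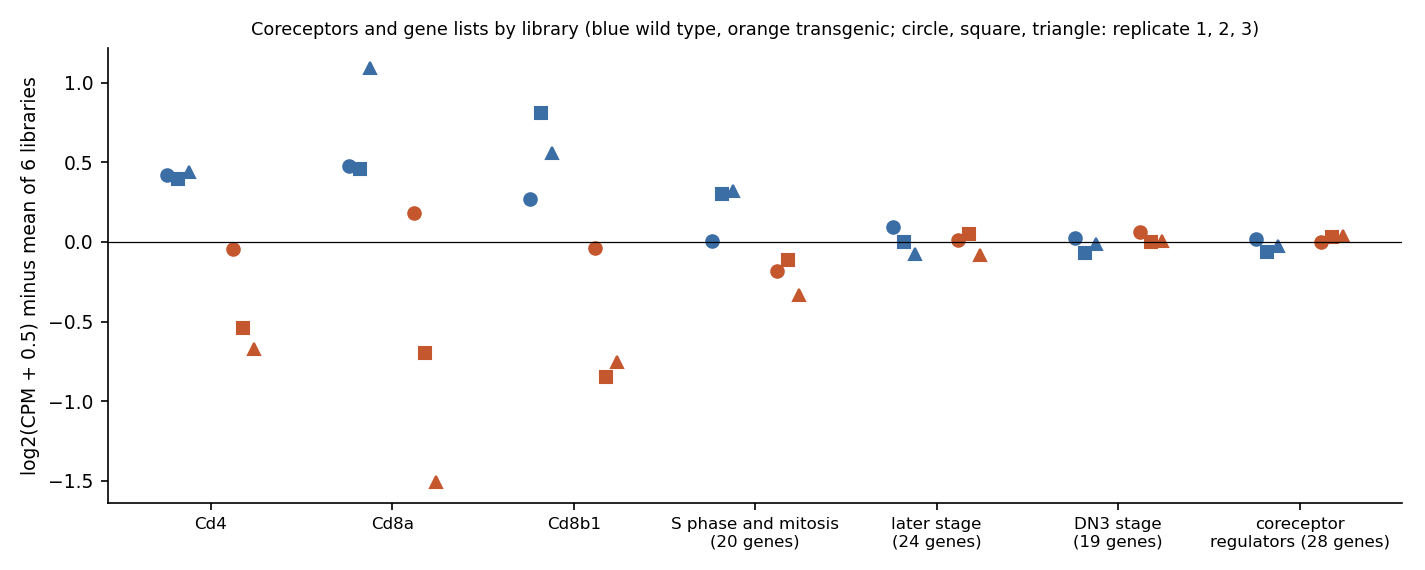
Deviation of log2(CPM + 0.5) from the mean of 6 libraries (y axis) for each member and, as a mean over genes, for 4 gene lists (x axis), in wild-type (blue) and transgenic (orange) libraries, with circle, square and triangle for replicates 1, 2 and 3. The members and the S phase and mitosis list separate the groups, while the lists of the later stage, the DN3 stage and the coreceptor regulators overlap within 0.10 of 0.

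Markers of other cells that can carry CD4 or CD8, or that could stray into a sort, had summed levels that overlapped between the groups in each list. Of 8 dendritic cell markers Clec9a, Cd209a and Batf3 had 0 fragments in every library, and the summed level of the list was 121 to 168 CPM for wild-type libraries against 147 to 161 CPM for transgenic ones, most of it Bst2. NK cell markers summed to at most 0.434 CPM, with 5 of 6 (Ncr1, Klrd1, Klrk1, Klra1 and Klra8) at 0 in every library. Macrophage and granulocyte markers summed to 18.2 to 23.8 CPM against 22.5 to 25.7 CPM, with S100a8 at 0. B cell markers summed to 148 to 172 against 134 to 151 CPM, with Pax5 at 0, gamma delta T cell markers to 94.5 to 116 against 102 to 131 CPM, and erythroid and stromal markers to 189 to 210 against 201 to 232 CPM. Trdc of the gamma delta list and Adgre1 of the macrophage list were not among the deposited gene symbols, so the sums leave them out. All 6 erythroid and stromal markers tested lay above 0, at a median of 1.28 (log2) and with the globin gene Hbb-bt at 1.73 ± 1.19 (SE), as did 4 of 4 macrophage and granulocyte markers, with a median of 0.17. The part of these cells in the coreceptor result was not tested. edgeR tested 4 dendritic cell, 4 macrophage and granulocyte, 4 gamma delta, 2 B cell and 0 NK cell markers, and could not call the rest. The NK cell markers also lay below the coreceptors, to which the own filter of DESeq2 gave no adjusted p. With all libraries edgeR and DESeq2 called 0 genes of these lists. At an unadjusted p under 0.05 edgeR placed 1 gene, Ighm, lower at -0.23 ± 0.08 (SE), beside 7.7% of all genes. Without wild-type replicate 1 edgeR called Bst2 higher (log2 fold change 0.30, adjusted p = 0.0387), among 149 called higher of 15022 genes.

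The members resembled each other across the libraries. Pearson's r of log2(CPM + 0.5) over the 6 libraries was 0.955 for Cd4 with Cd8b1, 0.946 for Cd4 with Cd8a and 0.882 for Cd8a with Cd8b1, points that share the split into 2 groups and the same libraries. Among 12218 other tested genes with at least 1 CPM, those most like Cd4 were Ifrd2, Tubb2a, Egln3, Zfp473 and 1110059E24Rik, with r from 0.981 to 0.993. Those most like Cd8a were N6amt2, Arhgef39, Ptms, Rac1 and Cep83, with r from 0.977 to 0.988, and those most like Cd8b1 were Bola3, Psma3, Nhp2, Ubald2 and Pde12, with r from 0.986 to 0.993. By CPM each of these 15 genes was lower in all transgenic libraries, as were 10.1% of all genes tested. They were picked for likeness to members that separated the groups, so this direction follows largely from the choice. Their fitted log2 fold changes, smaller than those of the members, ran from -0.56 (Zfp473) to -0.11 (Pde12). On the FPKM scale Zfp473 lay at 0.00762, by limma on log2(FPKM + 0.1).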

How the data were processed

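RNA of 6 libraries was analysed. Per the submitters' processing notes the reads were processed with TopHat2 and Cuffdiff on mm10; no version, annotation or strand setting is stated there. Per the file headers, the authors gave each transcript an estimated count (raw fragments) and an FPKM per library. Their comparison, also deposited, lists log2 fold changes with p-values and q-values. The externally scaled fragments, a signal the authors made by multiplying the raw fragments, and the test statistic, a score in the authors' comparison, were not used.

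Expected counts were summed per symbol and rounded. The 197 genes with transcripts at loci the authors' software failed to estimate (HIDATA) were left out, no member among them. Genes were filtered with filterByExpr (minimum count 10, total 15), scaled by TMM and tested two-sided by quasi-likelihood in edgeR 4.0.16 under R 4.3.3, no covariate, with Benjamini-Hochberg adjustment and a threshold of 0.05; transcripts likewise. The residual degrees of freedom were 4 and the prior ones 5.61. Alternatives used DESeq2 1.42.0 and limma 3.58.1, and the fit was tested on simulated data. Columns of no labelled sample numbered 0.

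The members and gene lists were chosen with earlier results of these data known. The genes named are the members, tested genes within 100000 bases, the 5 most like each member, from each list up to 4 called or else the 3 of smallest p, and fixed stage genes. Cd6, Ccr9, Myb and Runx2 were named after their values were seen. Some genes that this rule names are not reported here.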

Additional observations from a re-analysis of the deposited data

How the results depend on the processing

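Each member rests on 54 to 499 fragments per library, and 3 libraries per group limit what the tests can call. The direction of Cd4, Cd8a and Cd8b1 was below 0 in each of 20 alternatives, which refit the same libraries. The log2 fold changes ran from -1.13 to -0.51, -1.98 to -0.84 and -1.49 to -0.93. The adjusted p (edgeR, DESeq2 or limma) ran from 0.0167 to 0.594, 0.0243 to 0.535 and 0.00320 to 0.499. The calls gained were Cd8b1 without a filter on low counts (-1.15) and without wild-type replicate 1 (-1.29), and all 3 members with DESeq2 run without its own filter, an alternative chosen after seeing the data (-0.89, -1.34 and -1.15). Leaving out 1 library moved Cd4 between -1.13 and -0.75, Cd8a between -1.98 and -0.97 and Cd8b1 between -1.49 and -0.99. With the replicate number as a block the members had -0.92, -1.47 and -1.19 (edgeR, adjusted p = 0.112, 0.160 and 0.112). The numbers share no stated litter or day, and same-numbered libraries correlated at 0.0883, 0.0273 and -0.00176 in their deviations from the group means. With 3 libraries per group these values can neither show nor exclude a shared litter or day. Not every library correlated best with its own number.

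The count of genes called, 2, became 497 with DESeq2, 428 with DESeq2 without its own filter, 127 without a filter on low counts, 20 with a robust prior, 14 with the replicate block, 248 with a covariate for Y-linked RNA, 260 without the libraries with Y-linked RNA, 92 with the failed loci kept and 4 with limma on log2(FPKM + 0.1). It ran from 1 to 498 without 1 library, the highest without wild-type replicate 1. Members called over all gene lists, 0, became 29 with DESeq2, 24 with the covariate and 0 to 29 without 1 library. The cause was not tested.

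The difference in the Cd8a to Cd8b1 log2 ratio ran from -0.59 to 0.053 without 1 library, reversed without transgenic replicate 3. The exon-skipped Cd8a-202 and the non-coding Cd4-203, near 0 with large errors, ran from -3.46 to 0.36 and from -7.05 to 0.50 without 1 library. Signs changed in some other genes. Eno2 went to -0.81 with the replicate block, -0.90 with the covariate, -2.22 without the libraries with Y-linked RNA and from -2.29 to 0.62 without 1 library. Without the libraries with Y-linked RNA Lag3 went to 0.10 and Spsb2 to -0.16. With limma on log2(FPKM + 0.1), + 0.5 and + 1, Lrrc23 went to -0.51, -0.45 and -0.39, Runx3 to -0.0135, -0.00959 and -0.00627 and Zfp473 to 0.00762, 0.00690 and 0.00594. Without 1 library, Lag3 ran from -0.57 to 0.0054, Spsb2 from -0.046 to 0.28, Rmnd5a from -0.062 to 0.035, Runx3 from -0.056 to 0.22 and Trac from -0.61 to 0.24.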
